A study of Zea mays with 9 samples.

Results

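Dissected maize endosperm at 8 days after pollination (DAP) was compared with whole maize kernels at 6 DAP, by RNA sequencing of poly(A) RNA on the SOLiD 4 system. These are 2 of the 9 libraries of a time course that runs over 8 stages. Both came from the inbred B73, the genotype of the maize reference genome, grown in a greenhouse with a 16 hour day and self-pollinated, with no treatment. The 8 DAP sample was endosperm cut out of the kernel, free of embryo and pericarp per the labels. The 6 DAP sample was the whole kernel pinched off at its base, so it held maternal seed coat, nucellus and pedicel tissue and the embryo together with the endosperm. Age and tissue therefore changed together and cannot be told apart, and fewer cells of a type cannot be told apart from less RNA per cell. Of 3 biological replicates collected per stage 1 was sequenced, so each side is 1 library, no difference has a replicate check and no p-value is given.

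The maize endosperm begins as a multinucleate cell, becomes cellular in the first days after pollination and then forms specialised regions. The basal transfer layer takes up nutrients from the mother plant, the embryo-surrounding region lines the embryo cavity, the aleurone forms the outer layer, and the starchy endosperm fills with starch and with zeins, the prolamin storage proteins. The passage from cell division and differentiation to grain filling lies in the window that these libraries cover.

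The 8 DAP library held 17915299 counted reads and the 6 DAP library 40145710. The level v of a gene model is its TMM-scaled CPM, the read count relative to an effective library size, which is the total multiplied by the TMM factor that edgeR computes over all 9 libraries. Calls of higher and lower models rest on 3 conditions: v + 1 is 4 times as large on 1 side or more, v on that side is 10 or above, and 1 lies outside the exact 95% interval of the ratio. These intervals cover counting error only. A v of 10 stood for 191 reads at 8 DAP and 547 reads at 6 DAP. Between the technical replicates of 0 DAP, which are libraries of the same RNA, the same rule called 77 of 44687 models (0.172%).

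Of 110028 gene models, 44687 reached v = 1 in a library of the series. In 8 DAP endosperm 746 of these were called higher than in 6 DAP kernels (1.67%) and 1436 were called lower (3.21%). The models called higher held 20.1% of the reads at 8 DAP and 2.48% at 6 DAP. Those called lower held 0.788% of the reads at 8 DAP and 9.46% at 6 DAP. The larger group was thus the one that was lower in the endosperm, whereas the largest ratios belonged to the models that were higher: 50 of the higher models and 5 of the lower ones passed a ratio of 64 on v + 1. With plain library totals in place of TMM, 566 models were called higher (1.27%) and 2258 lower (5.05%), and none was called in opposite directions by the 2 scalings. The change of scaling moves the log2 ratio of a highly counted gene by 0.35. The median log2 ratio over detected models was -0.08 with TMM and -0.32 with library totals. Among the 1933 detected models that carry a usable gene name, from which the lists below are drawn, 94 were called higher (4.86%) and 179 lower (9.26%), with a median log2 ratio of -0.31. With library totals the shares are 4.14% and 12.7%.

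**Figure D1:**
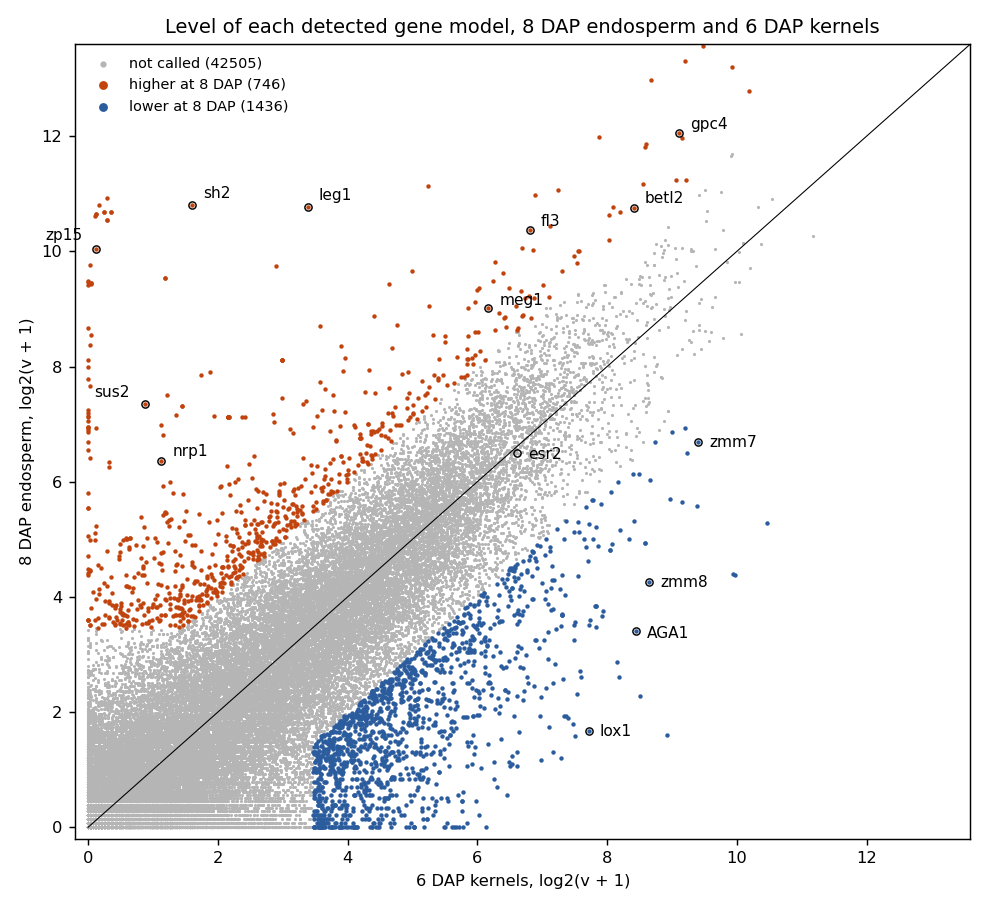
Each point is a detected gene model, with log2(v + 1) in 6 DAP kernels on the horizontal axis and log2(v + 1) in 8 DAP endosperm on the vertical axis. The 746 models called higher lie above the diagonal and include a column at the left edge with almost no reads at 6 DAP, and the 1436 called lower lie below it.

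Zeins gave the largest ratios. Of the 25 matched alpha-zeins, the most abundant zein class, 22 were called higher in 8 DAP endosperm and none lower, with a median log2 ratio of 7.15 (7.24 with library totals). Of the 5 beta-, gamma- and delta-zeins 4 were called higher. The alpha-zein z1A1_3 had v = 1613 in 8 DAP endosperm, against 0.0915 in 6 DAP kernels (5 reads). As library-total CPM these are 1722 in 8 DAP endosperm and 0.125 in 6 DAP kernels. The beta-zein gene zp15 had v = 1057 in 8 DAP endosperm, against 0.0915 in 6 DAP kernels, a ratio of 11558 (interval 4952 to 35600). The gamma-zein gene zp27 had v = 746 in 8 DAP endosperm, against 1.28 in 6 DAP kernels, a ratio of 582 (461 to 747). Gamma- and beta-zeins form the shell of the protein body into which alpha-zeins are packed. The gene gz50, for a further gamma-zein, had v = 122.7 in 8 DAP endosperm and no read in 6 DAP kernels, which makes it at least 2236-fold higher against 3 reads. The delta-zein dzs18 was not called, with v = 4.23 in 8 DAP endosperm and 0.128 in 6 DAP kernels.

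In all, the 30 zein models took 252597 reads at 8 DAP (1.41% of the library) and 146 reads at 6 DAP (0.000364%), and 17 of them had no read at 6 DAP. Zein reads were present in the kernels sampled before 6 DAP. The median v over the 30 models was 19.6 at 0 DAP, 20.4 at 2 DAP, 17.6 at 3 DAP, 22.7 at 4 DAP, 0 at 6 DAP, 140 at 8 DAP, 8857 at 10 DAP and 33688 at 12 DAP. All 30 were higher at 4 DAP than at 6 DAP. The source of the zein reads in the earlier kernels was not tested. Against 4 DAP kernels the log2 ratio of z1A1_3 is 2.95 in place of 10.53, so the size of the zein ratios rests on the 6 DAP library. Of the zein models 6 share their counts, within 2% in every library, with another model, so that their reads may have been counted more than once.

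Other reserve genes went the same way. The legumin gene leg1, for a storage globulin, had v = 1750 in 8 DAP endosperm, against 9.50 in 6 DAP kernels, a ratio of 184 (169 to 201). The oleosin gene ole1, for a coat protein of oil bodies, had v = 62.7 in 8 DAP endosperm and 1.41 in 6 DAP kernels, and was the only 1 of 7 matched oil body genes to be called. The inhibitor gene hag, for a trypsin and Hageman factor inhibitor of the maize kernel, had v = 141 in 8 DAP endosperm and 1.56 in 6 DAP kernels.

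Regulators of endosperm genes were called higher in 5 of 7 cases. Opaque2 (o2), the bZIP activator of zein genes, had v = 36.7 in 8 DAP endosperm, against 0.0915 in 6 DAP kernels, a ratio of 401 (171 to 1239). Its partners ohp1 and ohp2, bZIP proteins that dimerise with it, were not called and ran the other way: ohp1 had v = 10.5 in 8 DAP endosperm and 24.2 in 6 DAP kernels. The PLATZ protein gene fl3 had v = 1327 in 8 DAP endosperm and 111 in 6 DAP kernels, a ratio of 11.9 (11.6 to 12.3). The zinc finger genes nkd1 and nkd2, which are needed for aleurone identity, were both called higher. For nkd1 v was 44.2 in 8 DAP endosperm and 3.84 in 6 DAP kernels, and for nkd2 it was 29.6 in 8 DAP endosperm and 1.35 in 6 DAP kernels. Of 8 matched aleurone genes 3 were called higher and none lower, against 4.86% and 9.26% of detected named models. Among the 6 detected, 4 had a ratio above 1 and 2 below it, with a median log2 ratio of 1.71. The bHLH regulator opaque11 had v = 30.9 in 8 DAP endosperm and 5.36 in 6 DAP kernels. The NAC gene nac4 had v = 126 in 8 DAP endosperm and 1.17 in 6 DAP kernels, and was the only 1 of 19 matched NAC factors to be called.

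**Figure D2:**
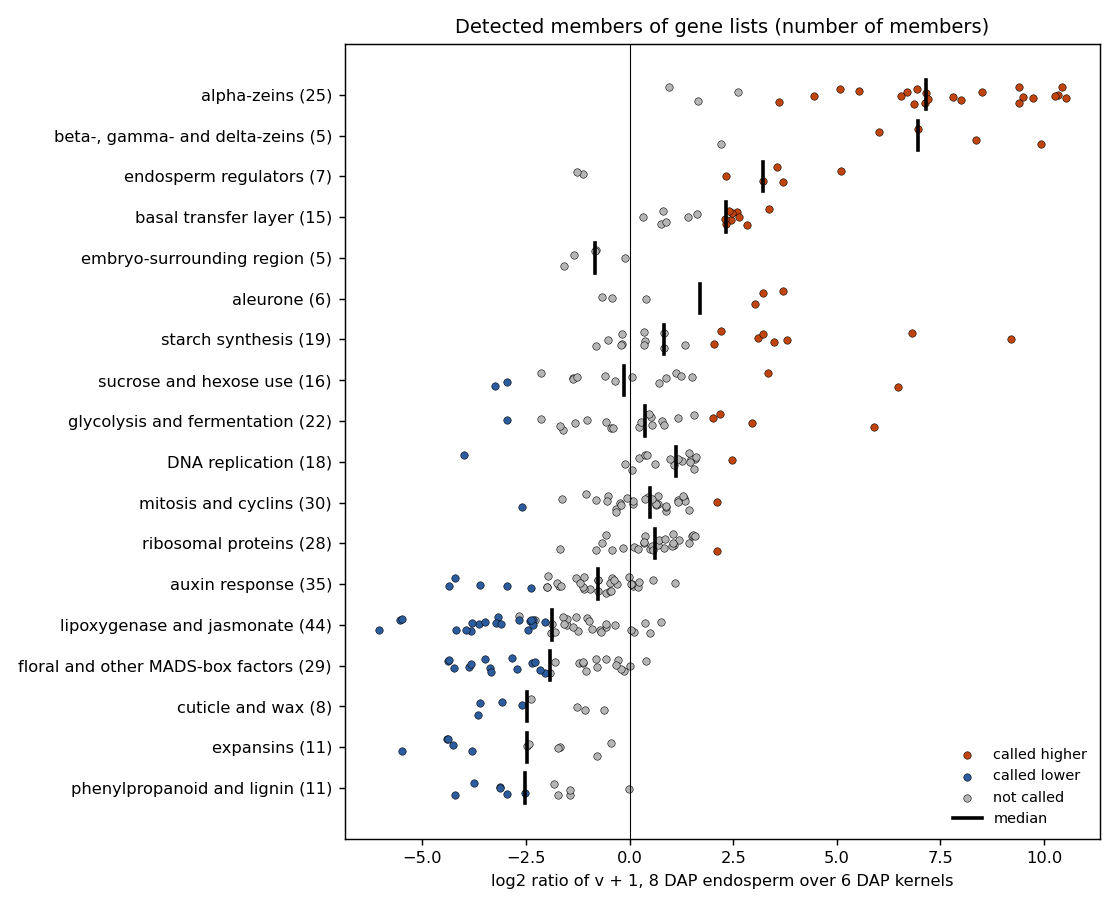
Each point is a detected member of a gene list, placed by its log2 ratio of v + 1, 8 DAP endosperm over 6 DAP kernels, with the list's median as a bar and its number of detected members in brackets. Zeins have medians near 7, the basal transfer layer sits wholly above 0, the embryo-surrounding region wholly below it, and the cuticle, expansin and lignin lists have no member above 0.

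The regions of the endosperm gave unlike counts of calls. All 15 matched genes of the basal transfer layer had a ratio above 1, 9 were called higher and none lower, with a median log2 ratio of 2.33 (1.98 with library totals, under which 7 were called). Summed over the list, v was 6381 in 8 DAP endosperm and 1302 in 6 DAP kernels. The small cysteine-rich transfer cell protein gene betl2 had v = 1714 in 8 DAP endosperm, against 341 in 6 DAP kernels, and betl-9 had v = 1063 in 8 DAP endosperm, against 102 in 6 DAP kernels. The genes betl2 and bap-1a lose their call with library totals, at log2 ratios of 1.98 and 1.96. The imprinted gene meg1, which encodes a signalling peptide of transfer cells, had v = 515 in 8 DAP endosperm and 71.0 in 6 DAP kernels. The response regulator gene tcrr-1 had v = 199 in 8 DAP endosperm and 37.0 in 6 DAP kernels. The cell wall invertase gene mn1, which splits incoming sucrose at the base of the kernel, was not called, with v = 145 in 8 DAP endosperm and 77.9 in 6 DAP kernels, nor was betl3, with v = 36.6 in 8 DAP endosperm and 21.3 in 6 DAP kernels.

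The 5 matched genes of the embryo-surrounding region all had a ratio below 1, and none was called in either direction. The small secreted protein gene esr2 had v = 89.2 in 8 DAP endosperm and 97.3 in 6 DAP kernels. The related esr3 had v = 15 in 8 DAP endosperm and 27.4 in 6 DAP kernels, and esr6 had v = 7.0 in 8 DAP endosperm and 23.0 in 6 DAP kernels. By v, these genes were thus no higher in the 8 DAP endosperm than in the 6 DAP whole kernel, and 1 of the 5 had no read at 8 DAP. Library totals put esr2 at 95.3 CPM in 8 DAP endosperm and 132 CPM in 6 DAP kernels. Both lists were low before 6 DAP. At 0 to 4 DAP betl2 had v between 2.14 and 7.01, and esr2 between 0.230 and 3.47.

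Genes listed for the embryo, which the dissection is said to remove, were counted in both libraries. Among them RAB15, kn1 and vp1 were chosen after their values were seen. Of 16 matched embryo genes 7 reached v = 1 in 8 DAP endosperm and 3 in 6 DAP kernels, and 4 had no read at 8 DAP. Of the 12 detected, 2 were called higher and none lower, against 4.86% and 9.26% of detected named models. Among the 12 detected, 10 had a ratio above 1, with a median log2 ratio of 1.19 (0.97 with library totals). The summed v was 472 in 8 DAP endosperm and 259 in 6 DAP kernels, most of it from RAB15 (377 in 8 DAP endosperm and 254 in 6 DAP kernels). RAB15 also had v = 146 in unpollinated kernels at 0 DAP, so neither it nor the sum is particular to the embryo. The homeobox gene wox2A, which marks the early embryo, had v = 8.05 in 8 DAP endosperm and 1.41 in 6 DAP kernels, while kn1 and vp1 stayed under v = 1 in both. The part of embryo RNA in the oleosin and globulin values was not tested.

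Starch synthesis was called higher in 8 of 19 matched genes and lower in none, with a median log2 ratio of 0.83 (0.52 with library totals). The shrunken2 gene (sh2), the large subunit of the endosperm ADP-glucose pyrophosphorylase that makes the precursor of starch, had v = 1781 in 8 DAP endosperm, against 2.03 in 6 DAP kernels, a ratio of 877 (728 to 1066). Its library-total CPM was 1902 in 8 DAP endosperm and 2.76 in 6 DAP kernels. Younger kernels (0 to 4 DAP) held more sh2 than the 6 DAP library, with v between 18.3 and 24.7. As for the zeins, the size of the sh2 ratio therefore rests on the low 6 DAP value, whose cause was not tested. The small subunit gene of the same enzyme, bt2, had v = 122 in 8 DAP endosperm and 10.0 in 6 DAP kernels, a ratio of 12.2 (11.1 to 13.4). The ADP-glucose transporter gene of the amyloplast, bt1, had v = 121 in 8 DAP endosperm and 0.0915 in 6 DAP kernels. The branching enzyme gene SBEIIb had v = 529 in 8 DAP endosperm and 37.0 in 6 DAP kernels, and the starch phosphorylase gene pho1 had v = 789 in 8 DAP endosperm and 83.3 in 6 DAP kernels. The granule-bound synthase gene wx1 had v = 89.7 in 8 DAP endosperm and 18.6 in 6 DAP kernels, and du1, for a soluble synthase, had v = 459 in 8 DAP endosperm and 112 in 6 DAP kernels. Both lose their call with library totals, at log2 ratios of 1.88 and 1.68. Debranching enzymes were not called, with zpu1 at v = 7.84 in 8 DAP endosperm and 9.18 in 6 DAP kernels.

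Of 18 matched genes of sucrose and hexose use 2 were called higher, 2 lower (3 with library totals) and 14 not called. Over detected named models the shares were 4.86% higher and 9.26% lower. Among the 16 detected, 8 had a ratio above 1 and 8 below it, with a median log2 ratio of -0.14 (-0.48 with library totals). The sucrose synthase gene sh1, which cleaves sucrose in the endosperm, had v = 1394 in 8 DAP endosperm and 137 in 6 DAP kernels, and sus2 had v = 162 in 8 DAP endosperm and 0.842 in 6 DAP kernels. The level of sus2 was also high in unpollinated kernels, at v = 177 at 0 DAP, and lay between 2.43 and 9.81 at 2 to 4 DAP. The sucrose phosphate synthase gene sps1, on the path that makes sucrose, was called lower, with v = 12.4 in 8 DAP endosperm and 103 in 6 DAP kernels. The vacuolar invertase gene ivr2 was also called lower, with v = 1.52 in 8 DAP endosperm and 22.9 in 6 DAP kernels.

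Carbon metabolism held some of the most counted genes. The pyruvate orthophosphate dikinase gene CYPPDKZM2 had v = 2258 in 8 DAP endosperm and 36.8 in 6 DAP kernels, and Ppdk1, of the same enzyme, had v = 282 in 8 DAP endosperm and 14.5 in 6 DAP kernels. The cytosolic glyceraldehyde phosphate dehydrogenase gene gpc4 had v = 4273 in 8 DAP endosperm and 551 in 6 DAP kernels, a ratio of 7.76 (7.66 to 7.86). The alcohol dehydrogenase gene adh2, which serves fermentation, went the other way with v = 28.6 in 8 DAP endosperm and 230 in 6 DAP kernels. Of 22 matched glycolysis and fermentation genes 4 were called higher and 1 lower. With library totals the count is 2 higher and 2 lower.

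Translation genes were among the most counted at 8 DAP. The 3 models named next, and fie2, rbr1, CesA-5 and TIFY23 further on, were chosen after their values were seen. The elongation factor 1-alpha gene elfa2 had v = 9414 in 8 DAP endosperm and 973 in 6 DAP kernels, and elfa3 had v = 4000 in 8 DAP endosperm and 566 in 6 DAP kernels. The highest v of any model at 8 DAP belonged to GRMZM2G301096, which has no usable name, with 12171 in 8 DAP endosperm and 714 in 6 DAP kernels. Ribosomal protein genes had smaller ratios: 22 of 28 detected had a ratio above 1, the median log2 ratio was 0.62 (0.27 with library totals), and only rpp1a was called higher, with v = 587 in 8 DAP endosperm and 136 in 6 DAP kernels. The call of rpp1a is lost with library totals, at a log2 ratio of 1.75. Chaperones and disulfide isomerases of the endoplasmic reticulum, where zeins are folded, gave no call in 16 genes, with a median log2 ratio of 0.11 that turns to -0.23 with library totals.

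Genes of DNA replication had mostly small ratios above 1. Of 18 matched DNA replication genes 16 had a ratio above 1, with a median log2 ratio of 1.12 (0.78 with library totals). The replicative helicase gene MCM7 was called higher, with v = 113 in 8 DAP endosperm and 19.4 in 6 DAP kernels. The ribonucleotide reductase gene RNRL1 was called lower, with v = 10.4 in 8 DAP endosperm and 179 in 6 DAP kernels, as the only gene of its list. The retinoblastoma-related gene rbr3 had v = 54.3 in 8 DAP endosperm and 11.9 in 6 DAP kernels, while rbr1 was at v = 37.6 in 8 DAP endosperm and 44.4 in 6 DAP kernels. The D-type cyclin gene cycD1 had v = 2.2 in 8 DAP endosperm and 18.2 in 6 DAP kernels. The call of rbr3 is lost with library totals, at a log2 ratio of 1.78.

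Of 12 matched Polycomb and imprinted genes 3 were called higher and none lower, against 4.86% and 9.26% of detected named models. The called ones include meg1, given above with the transfer layer. The Polycomb gene fie1, active in the endosperm from the maternal allele, had v = 116 in 8 DAP endosperm and 12.3 in 6 DAP kernels, a ratio of 9.47 (8.68 to 10.3), while its paralogue fie2 had v = 7.21 in 8 DAP endosperm and 7.76 in 6 DAP kernels. The imprinted gene nrp1 had v = 80.9 in 8 DAP endosperm and 1.19 in 6 DAP kernels. In a separate list of 14 matched DNA methylation and demethylation genes 2 were called higher (1 with library totals) and 1 lower. Its DNA methyltransferase gene met5 had v = 155 in 8 DAP endosperm and 29.2 in 6 DAP kernels. The gene DML3, of the demethylase family, was called lower, with v = 4.02 in 8 DAP endosperm and 19.9 in 6 DAP kernels, but not with DESeq2 size factors (log2 ratio -1.95).

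Of 11 matched genes of auxin synthesis and conjugation 3 were called higher and none lower, with 4 ratios above 1 and 3 below it. With library totals 1 of them is called lower. The flavin monooxygenase gene yuc, for the last step of auxin synthesis, had v = 231 in 8 DAP endosperm and 2.32 in 6 DAP kernels, a ratio of 99.5 (83.4 to 120). The aminotransferase gene tar3, for the step before it, had v = 13.0 in 8 DAP endosperm and 0.0366 in 6 DAP kernels. The glucosyltransferase gene iaglu, which conjugates auxin, had v = 32.3 in 8 DAP endosperm and 5.10 in 6 DAP kernels. All 8 matched transport genes had a ratio below 1, and br2, an auxin exporter of the ABCB class, was called lower with v = 1.36 in 8 DAP endosperm and 22.8 in 6 DAP kernels. Of 38 response genes 5 were called lower (8 with library totals) and none higher. The lower calls in transport and response lie not far above the 9.26% of detected named models, with 8 and 35 genes detected. The response factor gene ARF17 was called lower with v = 6.12 in 8 DAP endosperm and 145 in 6 DAP kernels.

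MADS-box factors, a family that includes the genes specifying flower and ovule organs, were called lower in 14 of 31 cases and higher in none, with a median log2 ratio of -1.91. With library totals 16 are called lower. The summed v was 549 in 8 DAP endosperm and 3401 in 6 DAP kernels. The SEPALLATA-like gene zmm8 had v = 18.1 in 8 DAP endosperm and 400 in 6 DAP kernels, a fall of 4.39 on the log2 scale (library-total CPM 19.4 in 8 DAP endosperm and 545 in 6 DAP kernels), and zmm7 had v = 102 in 8 DAP endosperm and 676 in 6 DAP kernels. The AGAMOUS-type gene zag1 had v = 4.70 in 8 DAP endosperm and 57.8 in 6 DAP kernels. Some members kept a clear level in the endosperm: the ovule gene zag2 had v = 118 in 8 DAP endosperm and 447 in 6 DAP kernels, which is a call only with library totals, and ZAGL1 had 14.4 in 8 DAP endosperm and 15.8 in 6 DAP kernels. Of 31 genes 21 stood at v = 1 or more in 8 DAP endosperm and 26 did so in 6 DAP kernels, so the endosperm library was not free of these transcripts, and the part of maternal tissue in it was not tested.

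Several lists of wall and surface genes held lower calls and no higher one, namely expansins, endoglucanases, lignin and cuticle genes. All 11 detected expansins, which loosen walls, had a ratio below 1, and 5 of 16 matched were called lower. The beta-expansin gene expB6 had v = 2.72 in 8 DAP endosperm and 167 in 6 DAP kernels, a ratio in the kernels of 61.5 (46.8 to 82.4) over the endosperm. The endoglucanase gene Cel17 had v = 0.0523 in 8 DAP endosperm (1 read) and 30.5 in 6 DAP kernels. Of 18 matched phenylpropanoid and lignin genes 6 were called lower and none higher, with a median log2 ratio of -2.53 over the 11 detected. The entry enzyme gene pal1 had v = 0.836 in 8 DAP endosperm and 33.1 in 6 DAP kernels, and the alcohol dehydrogenase gene cad1, of the last step to lignin monomers, had v = 0.261 in 8 DAP endosperm and 15.9 in 6 DAP kernels. All 8 detected cuticle and wax genes had a ratio below 1 and 4 were called lower, for example the lipid transfer gene LTP3 with v = 6.43 in 8 DAP endosperm and 89.2 in 6 DAP kernels. Cellulose synthase genes were mixed. CesA-7 was called lower, with v = 64.3 in 8 DAP endosperm and 402 in 6 DAP kernels, while CesA-5 was not, with v = 420 in 8 DAP endosperm and 386 in 6 DAP kernels.

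Lipoxygenase and jasmonate genes formed the list with the most lower calls: 19 of 45 matched were called lower and none higher, with a median log2 ratio of -1.88. Lipoxygenases oxidise fatty acids on the path to jasmonates and related signals. The lipoxygenase gene lox1 had v = 2.2 in 8 DAP endosperm and 210 in 6 DAP kernels, a fall of 6.05 on the log2 scale and the largest among named models. The gene lox11 had v = 0.366 in 8 DAP endosperm and 62.2 in 6 DAP kernels. The gene lox6 had v = 0.209 in 8 DAP endosperm and 53.3 in 6 DAP kernels. Neither reached 10 reads at 8 DAP. The JAZ-type repressor gene TIFY15 had v = 0.105 in 8 DAP endosperm (2 reads) and 19.0 in 6 DAP kernels, while TIFY23 was not called, with v = 57.4 in 8 DAP endosperm and 33.8 in 6 DAP kernels. The gene Hm2, for resistance to a fungal toxin, had no read in 8 DAP endosperm and v = 48.0 in 6 DAP kernels, and was at least 306-fold lower against 3 reads.

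**Figure D3:**
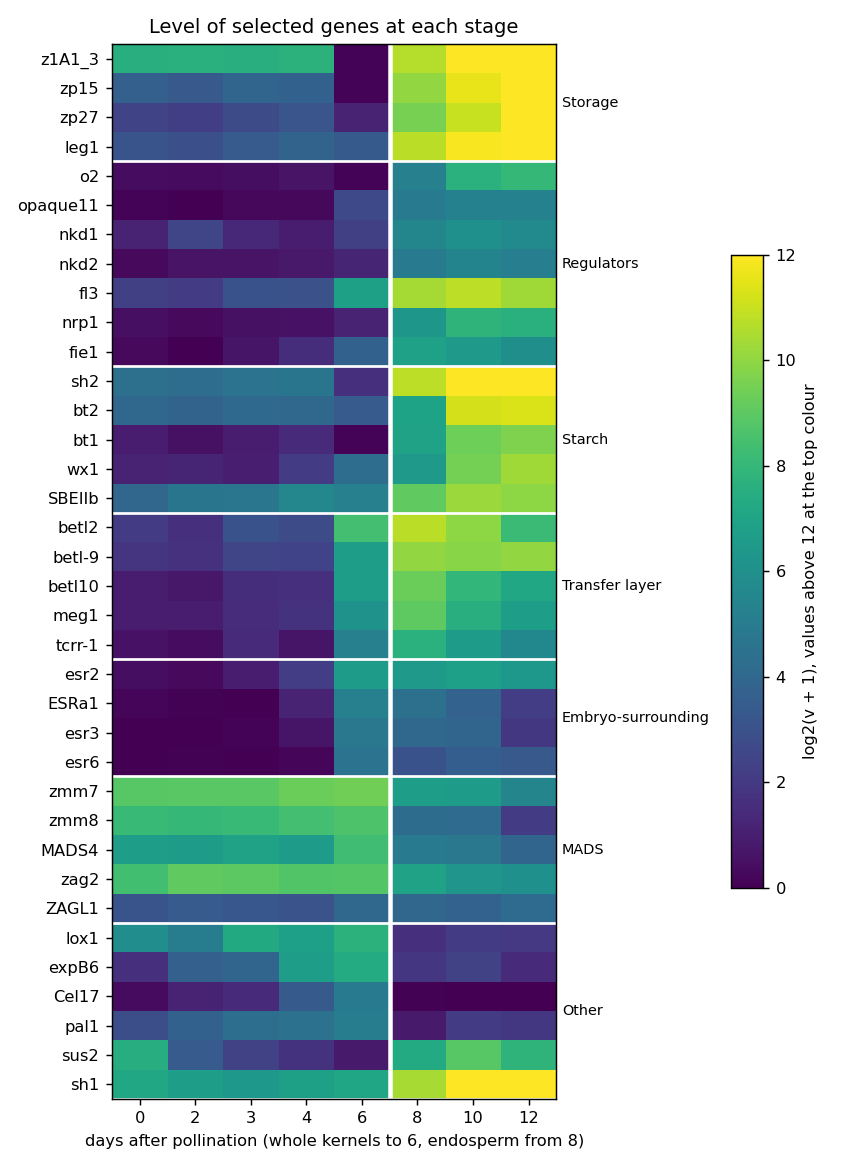
Colour gives log2(v + 1) of selected genes at each stage in days after pollination, with whole kernels left and endosperm right of the white line. Zeins are darkest at 6 DAP, transfer layer and embryo-surrounding genes appear at 6 DAP, and MADS genes are bright in all kernels and fade in the endosperm.

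The other libraries show where the called models were counted outside this pair. The calls rest on the 6 and 8 DAP values, so the levels at those stages are fixed by the choice of models. Each model called higher also had v of at least 10 at 8 DAP, whereas a detected model needed only v = 1 in a library. The shares of all detected models are therefore not a like background, and part of each difference can follow from the rule. Of the 746 models called higher, 122 (16.4%) had v below 1 at every kernel stage from 0 to 4 DAP, against 14.1% of all detected models, and 220 (29.5%) had v of at least 10 at each of them, against 23.8% of all detected models. At both later endosperm stages 504 (67.6%) stood at v = 10 or more, against 24.96% of all detected models. A level at 10 or 12 DAP above that of every other stage was found for 306 (41.0%), against 28.1% of all detected models. The transfer layer gene betl2 was lower at the later stages: its v was 1714 at 8 DAP, then 984 at 10 DAP and 293 in the 12 DAP library. The starch gene sh2 was higher there: its v was 1781 at 8 DAP, then 6865 at 10 DAP and 16648 in the 12 DAP library. The TMM factor was 1.07 at 8 DAP, 0.528 at 10 DAP and 0.156 at 12 DAP. A factor below 1 puts v above library-total CPM. The size of the sh2 values at 10 and 12 DAP, and the 306 models highest there, therefore depend on the scaling. Library totals were not compared at these stages.

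Of the 1436 models called lower, 640 (44.6%) had v of at least 10 at every kernel stage from 0 to 4 DAP, against 23.8% of all detected models, and 8 (0.557%) had v below 1 at all of them, against 14.1%. At both 10 and 12 DAP 1119 (77.9%) stayed under v = 10, against 67.8% of all detected models. The median v of the lower models was 11.7 at 0 DAP, 16.8 at 4 DAP, 24.3 at 6 DAP, 2.35 at 8 DAP, 3.02 at 10 DAP and 2.11 at 12 DAP. Of these medians, those at 6 and 8 DAP follow from the call rule. Each model called lower also had v of at least 10 in 6 DAP kernels. The shares of all detected models are thus no like background here either, and part of each difference can follow from the rule.

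**Figure D4:**
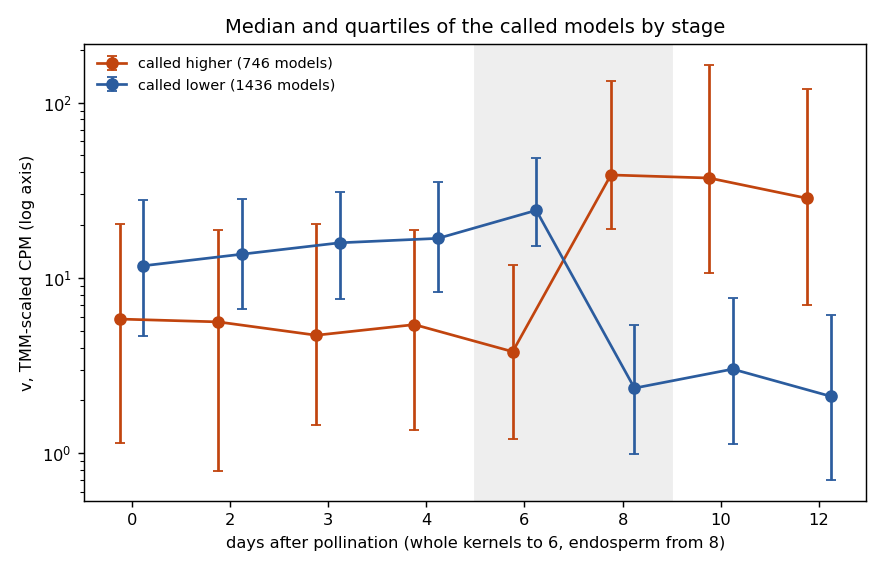
Points are the median v, on a log axis, and bars the quartiles, of the 746 models called higher and the 1436 called lower at each stage, with the compared pair shaded. The higher models stay near their 8 DAP median of 38.6 at 10 DAP (37.1), and the lower ones stay near 2 to 3 from 8 DAP on.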

How the data were processed

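The authors deposited raw counts, not normalised, of reads per gene model for each of 9 libraries (110028 models). Per the labels' protocols, RNA of integrity number 9.3 to 10 went through 2 rounds of poly(A) selection. Bedtools was among the tools, per the submitters' processing notes. Aligner, build, annotation, use of strand and the handling of multiply mapping reads: not given in the sources used here. Models with nearly equal counts (within 2% in each library, 100 reads or more) numbered 1030 in 444 groups and held 3.89% of reads at 8 DAP and 2.65% at 6 DAP. Names came from RefSeq genes of Zm-B73-REFERENCE-NAM-5.0, which matched 18787 models and gave 2274 a usable name.

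TMM factors came from edgeR 4.0.16 in R 4.3.3, and all else from Python 3.11.15 with scipy 1.17.1, numpy 2.4.6, matplotlib 3.10.9 and pandas 2.3.3. The intervals are exact conditional binomial ones. A model with no read on 1 side is bounded against 3 reads in that library. The calling of models by size was checked on simulated counts with known changes. The members and the 60 gene lists, matched by symbol, were chosen with earlier results of these data known. Genes were named by rule, starting with the 15 higher and 15 lower called models with the largest ratio. From each list came the 4 members whose log2 ratio is largest in absolute value. Members of the zein, starch, regulator, transfer layer, embryo-surrounding, aleurone and MADS lists were also named. The alternatives tried were scaling by library totals (zeins kept or left out), scaling by DESeq2 1.42.0, TMM over this pair alone, other minimum levels, ratios and pseudocounts, thinned counts, 1 model per group of like counts, and the neighbouring stages.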

Additional observations from a re-analysis of the deposited data

How the results depend on the processing

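Against 746 models called higher and 1436 lower, library totals gave 2258 lower, library totals without zeins 2229 lower, and no minimum level or a minimum of 1 gave 2253 lower. A ratio of 2 gave 2986 higher and 3424 lower, and a ratio of 8 gave 292 higher and 627 lower. DESeq2 size factors gave 845 higher and 1226 lower. Counts under the other alternatives stayed within 1.5 times, but with the neighbouring stages many of the called models were different ones. With 4 DAP kernels 483 of the 746 higher and 700 of the 1436 lower models kept their call. With 10 DAP endosperm 402 of the higher and 1119 of the lower models did. No called model changed sign under another scaling or threshold. With 4 DAP kernels as the earlier side 55 called models changed sign, and with 10 DAP endosperm as the later side 98 did, among them rbr3 at a log2 ratio of -0.12. Of 90 named models 15 lost their call with 4 DAP kernels and 9 with 10 DAP endosperm, among them met5, MCM7 and rpp1a with both. The cause was not tested. With 4 DAP kernels in place of 6 DAP, esr2 stood at a log2 ratio of 4.33 and esr3 at 3.32. No paired analysis was possible because each stage is 1 library and the groups share no replicate numbers that pair samples. For a model with no read, 3 reads stand for v = 0.157 at 8 DAP and 0.0549 at 6 DAP, so differences below that were not detectable at this depth.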

Other observations

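Lower calls in the nitrogen and aquaporin lists lay not far above the 9.26% of detected named models, with 26 and 17 genes detected. Of 28 matched genes of amino acid and nitrogen metabolism 4 were called lower and none higher. The glutamine synthetase gene gln4 had v = 5.49 in 8 DAP endosperm and 54.8 in 6 DAP kernels, and gln3 had v = 1.25 in 8 DAP endosperm and 15.5 in 6 DAP kernels. The asparagine synthetase gene asn3 had v = 0.0523 in 8 DAP endosperm (1 read) and 13.1 in 6 DAP kernels. The potassium transporter gene HAK1 had v = 6.95 in 8 DAP endosperm and 107 in 6 DAP kernels. Of 27 matched aquaporins, the water channels, 2 were called lower and none higher. Proteases of senescence and cell death were called lower in 4 of 11 cases, with see1 at v = 5.85 in 8 DAP endosperm and 100 in 6 DAP kernels. The cystatin gene cc7, for a protease inhibitor, had v = 51.1 in 8 DAP endosperm and 498 in 6 DAP kernels.

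None of 16 matched WRKY factors was called by the rule of size, which gives no p-value, and their median log2 ratio was -1.02. Of 56 MYB factors 2 were called lower and none higher, of 39 AP2/ERF factors 2 lower and none higher, and of 48 bHLH factors 4 lower and 2 higher. The detected members numbered 35, 31 and 27. Over detected named models 4.86% were called higher and 9.26% lower, so these few calls show nothing particular to the families. The bHLH gene bHLH30 had v = 1.41 in 8 DAP endosperm and 60.5 in 6 DAP kernels. All 9 matched histone genes were also without a call, with a median log2 ratio of 0.58 (0.24 with library totals).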
